A study of Mus musculus with 6 samples.

Results

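H3K4me3 was compared between a section of adult mouse brain and a section of a whole mouse embryo at stage E11.5, in mid-gestation, which are 2 of the 6 sections of the series. The brain section came from a wild-type adult and was 20 µm thick. The embryo section came from a wild-type E11.5 embryo and was 16 µm thick. Both were cryosections fixed with paraformaldehyde on a DNA array, where an antibody to the mark brought protein A-Tn5 to marked chromatin and the cut fragments took up the barcodes of their array spot. A spot is a small region that can hold several cells. There is 1 section per group, so no value below has a spread between animals and no test was made. Intervals cover counting error only, and reads are not known to be independent molecules. Tissue, stage, section thickness and the clean-up of spots named in the embryo label differ together and cannot be told apart.

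H3K4me3 is written on nucleosomes at gene starts by the COMPASS complexes, which contain SET1 or MLL methyltransferases. In adult tissue and in embryos it marks active and poised promoters, and CpG-rich promoters of many genes carry it in most cell types. In embryonic cells, promoters of developmental regulators can hold it together with H3K27me3, the mark of Polycomb silencing.

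The brain section held 2036521 reads over 1200 spots and 11345 genes, and the embryo section 403483 reads over 248 spots and 18066 genes. The median spot had 1179 reads in the brain and 1481.5 in the embryo. The members compared were the 11127 genes held by both sections. A further 218 genes were held by the brain alone, with a median of 41.5 brain reads, and 6939 by the embryo alone, with a median of 3 embryo reads. A gene's level is its reads divided by the mean over the shared genes, which was 182.07 reads in the brain and 27.72 in the embryo. The median gene had 122 reads in the brain and 11 in the embryo, so the embryo's depth sets the precision of most ratios. The ratio is the log2 of the brain level over the embryo level after 0.1 was added to both. Its median over the shared genes was 0.66, and every ratio below is given relative to that median. On this scale 1 is 2-fold, a positive ratio is higher in the brain, and a negative ratio is higher in the embryo. The sums of 130 shared genes are lower bounds in either section.

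The sections shared most of their order of genes. Spearman's rho between brain and embryo reads was 0.697 across the 11127 genes, which are not independent replicates and share gene length and promoter composition. Within 2-fold of the median lay 9016 genes, or 81.0%. Of all shared genes, 804 (7.23%) lay 2-fold or more above the median and 1307 (11.7%) 2-fold or more below it. With the counting interval of the ratio also required to lie past the median, 734 genes (6.6%) stayed above and 1305 (11.7%) below. The 12 genes nearest the threshold had ratios of 1.0001 to 1.0026 just inside the upper one, and of -1.010 to -1.001 just inside the lower one. Just outside, they ran from 0.996 to 0.998 above and from -0.999 to -0.995 below. The counts past 2-fold depend on the constant: with 0.01 in place of 0.1, 1566 genes lay above and 1660 below, and with 1, 96 above and 492 below. With the spots of most reads of each gene left out, 1570 lay above and 1709 below.

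With the constant of 0.1, the far ends of the distribution were unequal. At 4-fold, 48 genes lay above and 455 below, and at 16-fold 0 lay above and 101 below. The highest ratio was 2.92 and the lowest -8.47. The genes above the median by 2-fold had a median of 158 reads in the brain and 4 in the embryo, and 376 of the 804 had 3 or fewer embryo reads. A single embryo read is a level of 0.0361, below the 0.1 that was added, so the upper end is held in by depth and by that constant. The genes below had a median of 126 reads in the brain and 49 in the embryo, and none of the 1307 had 3 or fewer embryo reads. They took 13.4% of the brain's reads on shared genes and 53.4% of the embryo's. The added 0.1 puts a fall of 2-fold almost out of reach for a gene of 3 or fewer embryo reads. The shares of reads follow in part from how the genes were chosen.

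**Figure D1:**
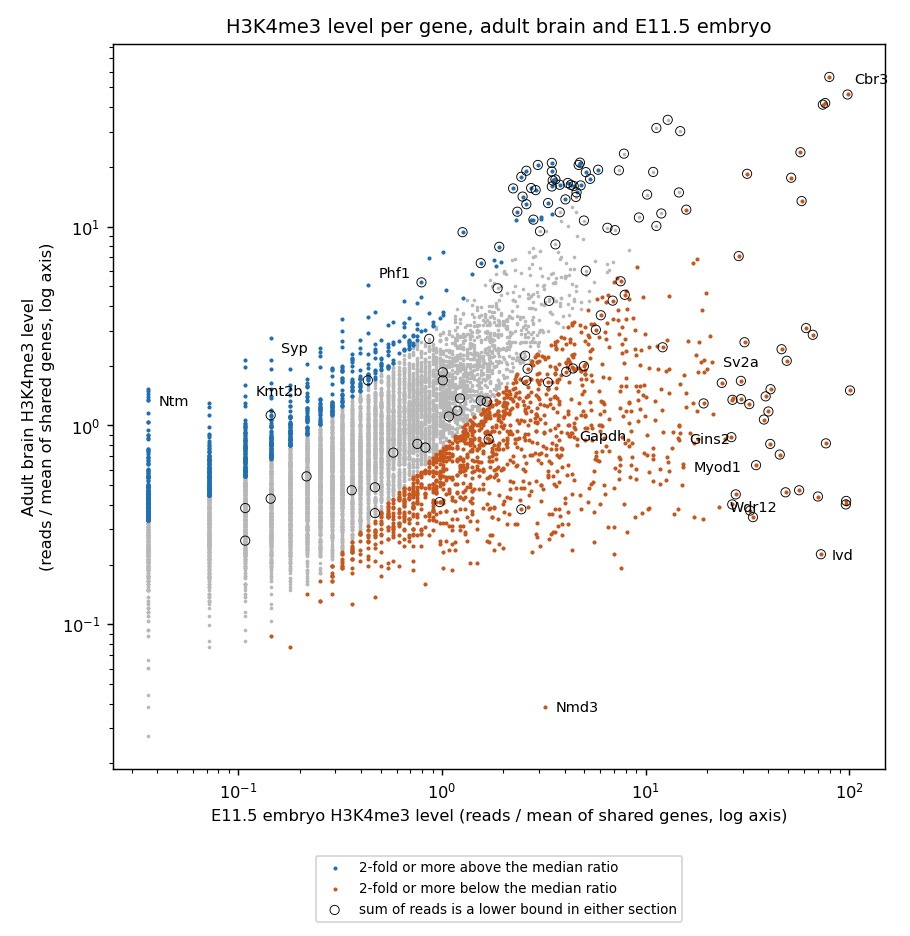
H3K4me3 level of each of the 11127 shared genes in the adult brain (vertical) and the E11.5 embryo (horizontal), as reads over the section's mean, on log axes. The 804 genes 2-fold or more above the median ratio are blue, the 1307 below it are orange, and circles mark the 130 genes whose sums are lower bounds. Orange genes reach much farther from the cloud than blue ones.

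The machinery of transmitter release fills vesicles, docks them and fuses them with the membrane of the nerve terminal. Of its 27 genes, 18 were held by both sections. Their median ratio was -0.35, with 5 of 18 above the median of all genes. Of the 18, 3 lay 2-fold above and 3 below, or 16.7% each. Among all shared genes the shares were 7.23% above and 11.7% below, and counts of every later list are to be read against these. Syp, the vesicle protein synaptophysin, had 387 reads in the brain and 4 in the embryo, with a ratio of 2.53. Its ratio without the added constant was 3.06, with a counting interval of 1.69 to 4.94. Sv2b, a vesicle glycoprotein, had 1056 reads in the brain and 39 in the embryo, a ratio of 1.31. Its paralog Sv2a ran the other way, with 381 reads in the brain and 586 in the embryo and a ratio of -3.94. Syt2, a calcium sensor of release, had 272 reads in the brain and 164 in the embryo and a ratio of -2.58. The other 2 genes past 2-fold were Slc17a6, which loads glutamate into vesicles, at 135 and 3 reads (1.35, or 1.96 without the constant, interval 0.38 to 4.25), and Unc13a, a priming factor, at 154 and 35 reads (-1.19). Snap25, the membrane partner in fusion, had 121 reads in the brain and 14 in the embryo and a ratio of -0.32, within 2-fold.

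The promoters of the genes at either end of this list are shown because paralogs of 1 vesicle protein family stand on opposite sides. They are windows of 250 bases before to 50 after the annotated start, from RefSeq on GRCm38.p6, 5′ to 3′ on the gene's strand, with CpG in capitals. Syp lies at chrX:7638330-7638629 on the plus strand, Sv2b at chr7:75309213-75309512 on the minus strand and Sv2a at chr3:96180977-96181276 on the plus strand.
Syp: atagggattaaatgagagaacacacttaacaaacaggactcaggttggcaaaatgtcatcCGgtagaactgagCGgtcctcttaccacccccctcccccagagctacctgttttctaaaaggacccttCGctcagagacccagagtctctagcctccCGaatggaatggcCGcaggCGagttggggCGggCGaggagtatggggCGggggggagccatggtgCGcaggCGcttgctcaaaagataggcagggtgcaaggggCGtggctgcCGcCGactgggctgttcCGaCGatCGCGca
Sv2b: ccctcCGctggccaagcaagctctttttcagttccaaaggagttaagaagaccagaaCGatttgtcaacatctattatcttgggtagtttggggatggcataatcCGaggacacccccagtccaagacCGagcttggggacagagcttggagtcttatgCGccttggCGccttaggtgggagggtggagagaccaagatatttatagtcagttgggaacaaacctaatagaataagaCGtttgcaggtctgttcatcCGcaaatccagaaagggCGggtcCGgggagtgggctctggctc
Sv2a: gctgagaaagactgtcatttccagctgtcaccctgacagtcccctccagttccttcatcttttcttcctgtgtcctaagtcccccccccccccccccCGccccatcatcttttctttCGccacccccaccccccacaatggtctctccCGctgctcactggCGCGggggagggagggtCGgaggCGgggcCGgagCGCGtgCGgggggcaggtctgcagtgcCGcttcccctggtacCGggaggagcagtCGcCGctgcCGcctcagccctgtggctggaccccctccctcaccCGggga
Syp has 18 CpG and 59% G or C, Sv2b 10 and 51.3%, and Sv2a 17 and 68%. Over all 8754 shared genes with a promoter in the table, the median was 18 CpG, so Syp and Sv2a lie at the middle of that range although their ratios lie at opposite ends of the list.

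Receptors, channels and other genes of neurons were spread on both sides of the median. Of 23 receptors for glutamate and GABA, 2 lay above by 2-fold and 1 below, with a median of 0.09. Grin2a, a subunit of NMDA receptors, had 186 reads in the brain and 9 in the embryo (0.74). Gabrb1, a GABA receptor subunit, had 315 and 24 reads in the same order (0.26). Grik4 (kainate) and Grin2d (NMDA) both had a ratio of -0.56, from 270 reads in the brain and 38 in the embryo and from 475 and 67. Of 21 voltage-gated channels, 2 lay above and 2 below, with a median of -0.03. Hcn2, a pacemaker channel, had 129 reads in the brain and 281 in the embryo (-4.32). Kcnq3, which carries the M current, had 229 reads in the brain and 8 in the embryo (1.14), and Cacna1d, a calcium channel, had 377 and 30 (0.21). The channel farthest from the median, Hcn2, was thus higher in the embryo.

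RNA-binding proteins of neurons had a median of 0.13 over 15 genes, with 1 above by 2-fold and 2 below. Msi1, known from neural progenitors, was the gene above, at 371 reads in the brain and 6 in the embryo (2.09). The splicing regulators Rbfox1 and Rbfox3 parted: Rbfox1 had 435 reads in the brain and 264 in the embryo (-2.61), and Rbfox3, the neuronal antigen NeuN, 748 in the brain and 51 in the embryo (0.46). Srrm4, which directs neuronal microexons, had 190 reads in the brain and 39 in the embryo (-1.06). Among 24 adhesion and guidance genes, 3 lay above and 3 below (median -0.10). Ntm, an adhesion protein of neurites, had 270 reads in the brain and 1 in the embryo, and its ratio without the constant was 4.54 with an interval of 2.05 to 9.85. Nlgn2, an adhesion protein of inhibitory synapses, had 382 reads in the brain and 83 in the embryo (-1.16). Sdk2, at 378 and 69 reads (-0.91), and Dscaml1, at 306 and 21 (0.39), both cell adhesion proteins of the retina, stayed within 2-fold.

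Genes of particular neurons also lay on both sides. Markers of striatal neurons had the lowest median of the 39 lists, -0.51 over 14 genes. Of these, 1 lay above by 2-fold and 4 below, or 28.6% against 11.7% of all genes. Ppp1r1b, the dopamine-regulated phosphatase inhibitor DARPP-32, had 241 reads in the brain and 309 in the embryo (-3.64). Pde10a, a striatal phosphodiesterase, had 262 reads in the brain and 60 in the embryo (-1.22), while Pde1b, another phosphodiesterase, had 466 and 13 (1.56). Bcl11b, a transcription factor of striatal and deep cortical neurons, had 492 reads in the brain and 27 in the embryo (0.72). Among 15 genes of cortical excitatory neurons, 2 lay above and 2 below (median 0.03). Cux2, a factor of upper cortical layers, had 1251 reads in the brain and 493 in the embryo (-2.02), and Camk2a, a kinase of excitatory synapses, 205 in the brain and 50 in the embryo (-1.30). Mef2c had 350 reads in the brain and 19 in the embryo (0.70), and Tle4, a corepressor of deep layers, 318 and 24 (0.27).

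Genes of interneurons and neuropeptides had a median of -0.15 over 14 genes, with 0 above by 2-fold and 2 below. Sst, the peptide somatostatin, had 191 reads in the brain and 8 in the embryo (0.90), and Nxph1, a ligand of neurexins, 191 in the brain and 70 in the embryo (-1.85). The interneuron factors Dlx2 and Dlx6 had ratios of -1.11 and -0.54, at 168 and 676 brain reads, against 36 and 94 embryo reads. Monoamine and cholinergic genes had a median of -0.18 over 15, with 2 above and 2 below. Slc18a3, which loads acetylcholine into vesicles, had 465 reads in the brain and 15 in the embryo (1.39), and Fev, a factor of serotonin neurons, 350 in the brain and 14 in the embryo (1.08). The muscarinic receptor Chrm3 had 235 reads in the brain and 36 in the embryo (-0.67). In the thalamus and midbrain list, 2 of 15 lay above and 1 below (median -0.16). The neighbouring zinc-finger genes Zic1 and Zic4 were the 2 above, at 672 and 574 brain reads, against 24 and 25 embryo reads (1.31 and 1.04), although Zic4 turned to -0.11 with deposited values. Gbx2, a factor of the thalamus and of the hindbrain border, had 164 reads in the brain and 37 in the embryo (-1.18), and Plekhg1 had 1097 and 183 (-0.79).

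Glial lists had medians above 0, yet few of their members passed 2-fold. Medians above 0 were not particular to glia: 5 of the 6 lists of other tissues and 3 of the 11 embryo lists had them too. Among these were immune genes at 0.27 and blood and liver genes at 0.26. Oligodendrocyte genes had a median of 0.29 over 15, with 10 above the median of all genes, and 1 member passed 2-fold in each direction: the myelin enzyme Cnp (1.22, from 170 reads in the brain and 5 in the embryo) and the myelin regulator Myrf (-1.10, from 97 in the brain and 21 in the embryo). Olig2, a lineage factor, had 290 reads in the brain and 16 in the embryo (0.66). Mag, a myelin glycoprotein, had 388 and 32 (0.17). Pdgfra, the receptor of precursors, had 283 reads in the brain and 30 in the embryo (-0.18), so none of these 3 lay past 2-fold. Astrocyte genes had a median of 0.31 over 14, with 0 above by 2-fold and 2 below. These were Aldh1l1, a folate enzyme used as an astrocyte marker, with 214 reads in the brain and 71 in the embryo (-1.72), and the water channel Aqp4, with 233 and 51 (-1.15). S100b, a calcium-binding protein, had 201 reads in the brain and 10 in the embryo (0.72), and Gjb6, a gap junction protein, 382 and 25 (0.47). The astrocyte median kept its sign in 11 of the 12 alternative settings, and its lowest value was -0.03.

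Of 8 microglial genes, Tmem119 alone passed 2-fold above, at 240 reads in the brain and 9 in the embryo (1.08), and 0 passed below (median 0.23). Siglech had 197 reads in the brain and 10 in the embryo (0.70), and the fractalkine receptor Cx3cr1 245 in the brain and 29 in the embryo (-0.33). Of 12 genes of brain vessels, 1 lay above and 1 below (median 0.14). Slc2a1, the glucose transporter of the blood-brain barrier, had 294 reads in the brain and 11 in the embryo (1.12). Kcnj8, a potassium channel of pericytes, had 241 reads in the brain and 104 in the embryo (-2.10). Pdgfrb, the pericyte receptor, had 257 and 16 (0.50), and Foxf2, a pericyte factor, 446 and 52 (-0.29). The 8 genes of choroid plexus and ependyma had a median of -0.50 and none past 2-fold, with Foxj1, the factor of motile cilia, at 319 reads in the brain and 26 in the embryo (0.17) and Otx2 at 238 and 46 (-0.98). Of the genes chosen to define brain cells, the myelin gene Mbp, the astrocyte filament Gfap, the endothelial claudin Cldn5 and the choroid transport protein Ttr are not among the 11345 genes of the brain analysed here. They had 5, 2, 1 and 1 reads in the embryo.

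Genes driven by neuronal activity had a median of 0.12 over 18, with 0 above by 2-fold and 2 below. Nr4a1, an early-response receptor, had 845 reads in the brain and 551 in the embryo (-2.74). The early-response factors Fos and Egr1 had 443 and 247 brain reads, against 54 and 11 embryo reads (-0.36 and 0.89), and the neurotrophin Bdnf had 384 in the brain and 23 in the embryo (0.59). Clock genes had a median of 0.20 over 11, with 1 above and 3 below, or 27.3% against 11.7% of all genes. Per1 and Npas2, with lower bounds among their sums, had 298 and 195 brain reads, against 656 and 1056 embryo reads (-4.44 and -5.69). Bhlhe40, a repressor in the clock, had 358 reads in the brain and 120 in the embryo (-1.76). Tef had 217 and 32 (-0.62), Rora 248 and 18 (0.30), and Cry2 290 and 19 (0.45).

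Pooled, the genes of the brain lists had shares near those of all genes. Of 257 shared genes, 22 (8.56%) lay 2-fold above and 30 (11.7%) below, against 7.23% and 11.7% of all shared genes. Their median ratio was -0.02, and 127 of 257 lay above the median of all genes. A lower ratio for a cell type's genes may come with fewer marked cells or with less mark per cell, and the 2 cannot be told apart in these sums.

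**Figure D2:**
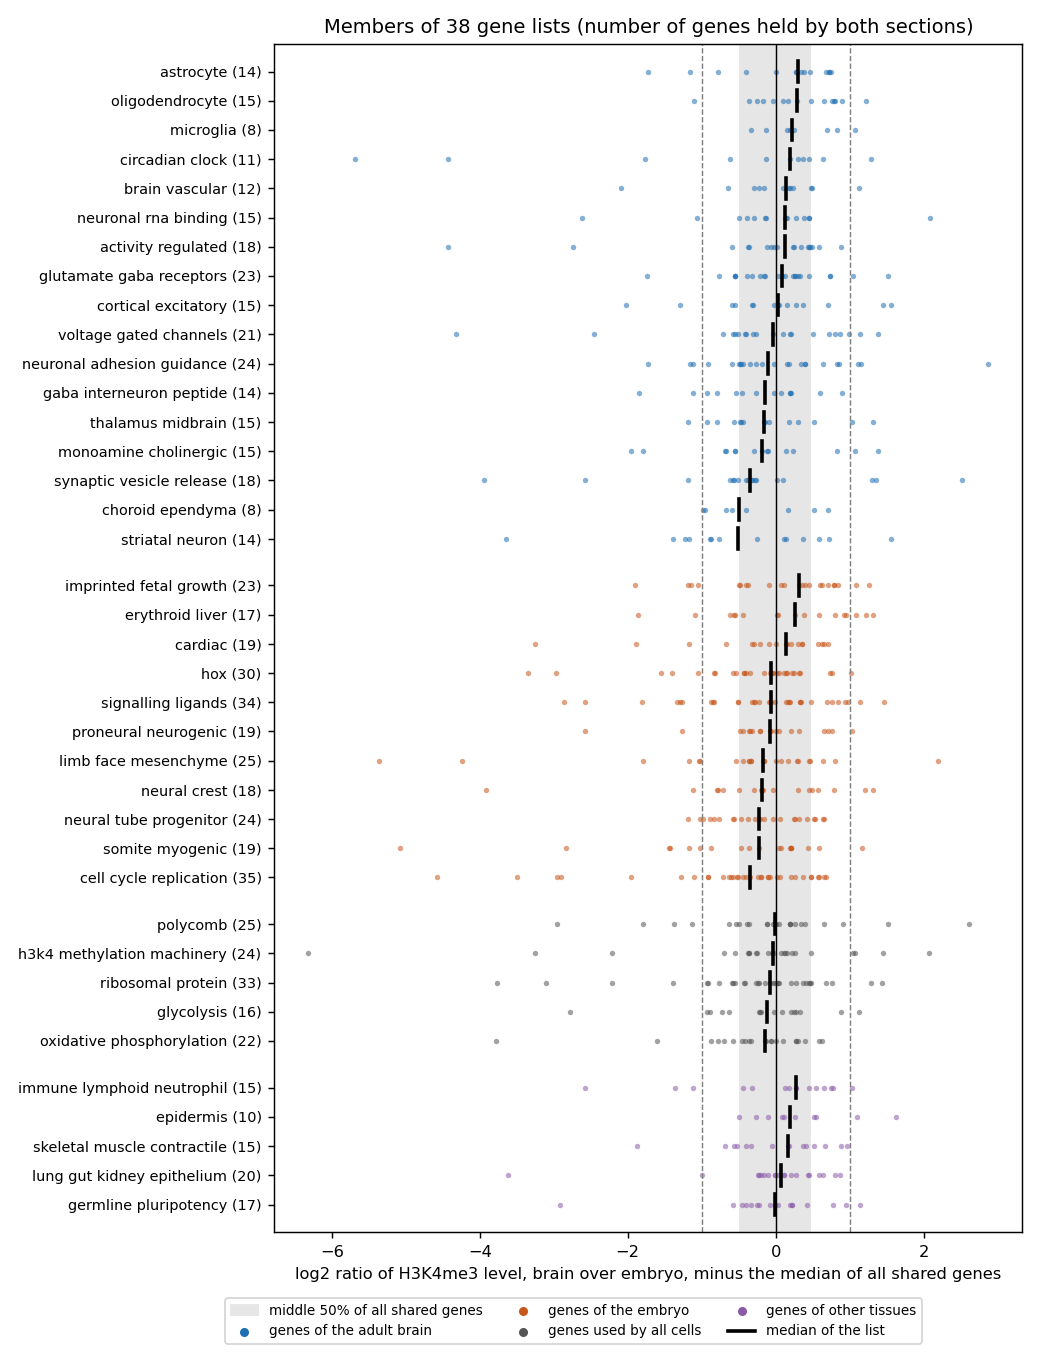
Ratio of H3K4me3 level, brain over embryo, on the log2 scale relative to the median of all shared genes, for the members of 38 gene lists (points) with each list's median (black bar). The grey band holds the middle 50% of all shared genes and the dashed lines mark 2-fold. All medians lie between -0.51 and 0.31, while single members reach from -6.32 to 2.88.

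Genes that lay out the embryo's axis and neural tube lay on both sides of the median. Of 30 Hox genes, which give segments their identity along the body, 1 lay 2-fold above and 5 below, with a median of -0.06. These are 3.33% and 16.7%, against 7.23% and 11.7% of all genes. Hoxd3 had 340 reads in the brain and 350 in the embryo (-3.36), and Hoxc10, a gene of lumbar levels, 184 in the brain and 150 in the embryo (-2.97). Hoxb5, Hoxb6 and Hoxb3 were also below (-1.55, -1.41 and -1.05). Hoxc8, with 260 reads in the brain and 13 in the embryo (0.76), and Hoxd4, with 233 and 19 (0.15), lay within 2-fold above the median. Hoxa5, the gene above, had 61 reads in the brain and 1 in the embryo. Its ratio was 1.01, or 2.39 without the constant, and that interval, -0.14 to 7.72, spans the median.

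Progenitor genes of the neural tube had a median of -0.22 over 24, with 0 above by 2-fold and 2 below, Gbx2 and Pax7. Pax7, a dorsal neural tube and muscle precursor factor, had 241 reads in the brain and 48 in the embryo (-1.03). Sox2 and Pax6, core factors of neural progenitors, had 253 and 516 brain reads, against 31 and 50 embryo reads (-0.37 and -0.04). Sox21 had 215 reads in the brain and 14 in the embryo (0.42). Of 19 proneural genes, 1 lay above and 2 below (median -0.08). The gene above, Ebf2, had 104 reads in the brain and 3 in the embryo (1.03). Its interval without the constant, -0.01 to 3.88, spans the median. Dll1, a Notch ligand of differentiating cells, had 131 reads in the brain and 83 in the embryo (-2.58). Insm1 had 204 and 27 (-0.48), Lhx5 264 and 19 (0.32), and Evx1, a spinal interneuron factor, 208 and 10 (0.77).

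Among the embryo lists, the lowest single ratio lay in the limb and face list (-5.36) and the next lowest in the somite list (-5.08). Of 19 genes of somites and muscle precursors, 1 lay above by 2-fold and 6 below, or 31.6%, against 11.7% of all genes. Their median was -0.23, and 9 of the 19 lay above the median of all genes. Myod1, the master factor of muscle, had 113 reads in 107 brain spots and 423 reads in 177 embryo spots, and its ratio was -5.08. Without the constant it was -5.44, with an interval of -5.75 to -5.14. Nkx3-2, a factor of sclerotome, had 88 reads in the brain and 70 in the embryo (-2.83). Myf6, Meox2, Lfng and Pax7 were the other 4, at -1.45, -1.43, -1.17 and -1.03. The gene above was Ripply2, at 2908 reads in the brain, a lower bound, and 123 in the embryo (1.16). Uncx and Foxc2, factors of somites, were both at 0.21, with 508 and 279 brain reads, against 41 and 22 embryo reads.

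Of 25 genes of limb and face mesenchyme, 1 lay above by 2-fold and 6 below, or 24% against 11.7% of all genes. Their median was -0.17. Alx1, a factor of the face, had 133 reads in the brain and 272 in the embryo (-4.24), and Msx2, of limb and skull, 146 in the brain and 52 in the embryo (-1.79). Tbx18, with a lower bound in its sums, stood at -5.36. Tbx5, the forelimb and heart factor, Twist2 and Barx1 completed the 6, at -1.18, -1.04 and -1.02. Dlx3, a factor of placenta and skin appendages, was the gene above, at 351 reads in the brain and 5 in the embryo (2.19). Tfap2c had 433 and 22 (0.81). Heart genes had a median of 0.14 over 19, with 0 above and 3 below, which were Smyd1, Myl7 and Tbx5. Smyd1, a methyltransferase of heart and muscle, had 92 reads in the brain and 98 in the embryo (-3.25), and Myl7, the atrial light chain, 121 in the brain and 47 in the embryo (-1.89). Nkx2-5, the early heart factor, had 297 and 21 (0.35).

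Blood and liver genes leaned slightly to the brain's side, with a median of 0.26 over 17, 3 above by 2-fold and 2 below. The erythroid factors Klf1 and Gata1 were among the 3 above, with 3 and 2 embryo reads. Trf, transferrin, was among the 2 below, with 244 reads in the brain and 51 in the embryo (-1.09). Foxa3 had 298 and 13 (0.95), and Apoa2 305 and 18 (0.58). Hba-a1, an adult globin made in the fetal liver, had 362 reads in the brain and 47 in the embryo (-0.44), and its values move over spots together with those of its near-identical neighbour Hba-a2. Afp, the fetal albumin-like protein, had 72 and 10 reads, a ratio of -0.56 whose interval without the constant, -1.65 to 0.43, spans the median.

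Neural crest genes had a median of -0.18 over 18, with 2 above by 2-fold and 2 below. Erbb3, a receptor of glial precursors, had 143 reads in the brain and 231 in the embryo (-3.91), while Ret, a receptor of enteric precursors, had 184 and 11 (0.50). Among 34 secreted ligands and signals of patterning, 2 lay above and 6 below (median -0.07). These are 5.88% and 17.6%, against 7.23% and 11.7% of all genes. Wnt11 had 492 reads in the brain and 355 in the embryo (-2.87). Fgf15 had 204 reads in the brain and 5 in the embryo (1.46), and Bmp4 216 and 9 (0.94).

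Genes of the cell cycle and DNA replication are used by dividing cells, which are few in the adult brain. They had a median of -0.35 over 35, with 0 above by 2-fold and 7 below, or 20% against 11.7% of all genes. Gins2, a subunit of the replicative helicase, had 157 reads in 140 brain spots and 401 reads in 177 embryo spots (-4.58). Ccnd2, a cyclin that drives entry into the cycle, had 514 reads in the brain and 574 in the embryo (-3.49). The other 5 were the helicase subunit Mcm2 (-2.95), the factor Mybl2 (-2.90), the mitotic kinase Plk1 (-1.96), the licensing factor Cdc6 (-1.28) and the clamp loader subunit Rfc4 (-1.10). Cdk2 and Ccne2, which act together at the start of replication, had 312 and 190 brain reads, against 17 and 10 embryo reads (0.68 and 0.65). Over spots, the values of Cdk2, Apoa2 and Foxa3 moved with those of the neighbouring genes Pmel, Tomm40l and Sympk at r over 0.9, so reads of these neighbours cannot be told apart. The list's median was the lowest of the 11 embryo lists, and it stayed between -0.52 and -0.13 over the 12 alternative settings. Of the 17 brain lists, 9 had medians above 0 and 8 below, among them striatal (-0.51), choroid (-0.50) and synaptic vesicle genes (-0.35). The share below by 2-fold was 28.6% in the striatal list, 27.3% in the clock list and 20% in the immune list, against 11.7% of pooled brain genes. Whether dividing cells had a part was not tested.

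Imprinted and fetal growth genes had a median of 0.31 over 23, with 2 above by 2-fold (8.70%) and 4 below (17.4%). Hmga2, a chromatin protein of fetal growth, had 442 reads in the brain and 18 in the embryo (1.09), and the growth factor Igf2 had 1077 and 56 (0.84). Igf2bp3, an RNA-binding protein of the fetus, had 170 reads in the brain and 65 in the embryo (-1.90), and Dlk1, an imprinted inhibitor of differentiation, 1146 in the brain and 252 in the embryo (-1.19). Members of the list thus stood on both sides. Pooled, the 253 genes of the embryo lists had 13 above by 2-fold (5.14%) and 42 below (16.6%), against 7.23% and 11.7% of all genes. Their median was -0.10.

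**Figure D3:**
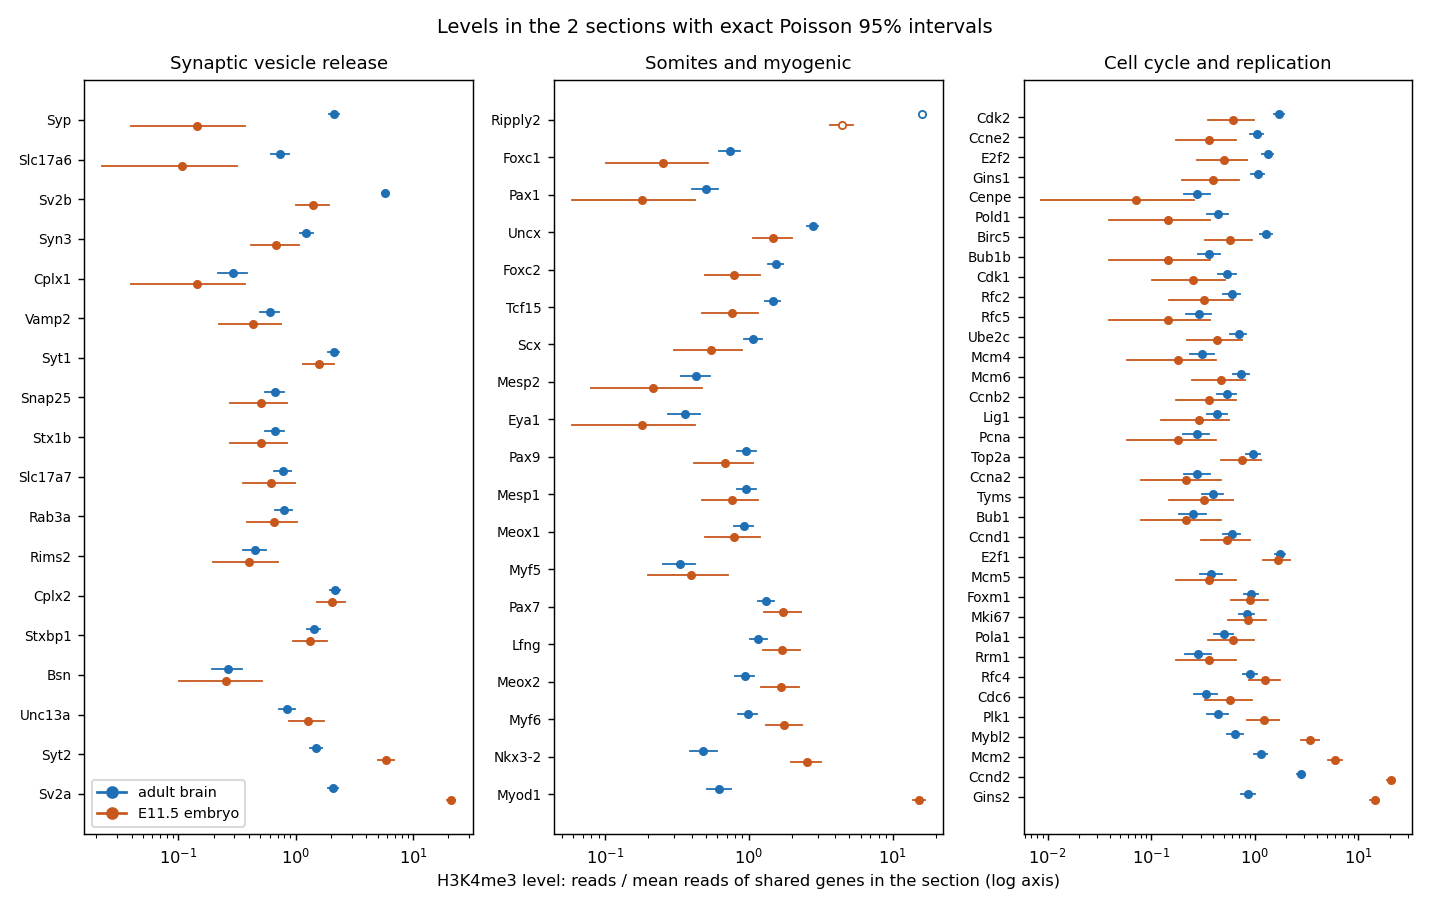
H3K4me3 level (reads over the section's mean, log axis) of every shared member of 3 lists in the adult brain (blue) and the E11.5 embryo (orange), with exact Poisson 95% intervals that cover counting error, ordered by ratio. Hollow points mark a gene with a lower bound in either section. Before the median of 0.66 is taken off, most genes lie slightly to the brain's side, and the lowest genes of each list, among them Sv2a, Myod1 and Gins2, lie far to the embryo's.

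Genes used by all cells gave a scale for how far single ratios can move. Of 120 such genes, 9 (7.5%) lay above by 2-fold and 14 (11.7%) below, near the shares of all genes. Gapdh, a glycolytic enzyme often used as a reference, had 162 reads in the brain and 116 in the embryo (-2.78), and Actb, cytoplasmic actin, 243 in the brain and 11 in the embryo (0.87). Of 33 ribosomal protein genes, 2 lay above and 4 below (median -0.08). Rps19 and Rps23 had 566 and 305 brain reads, against 18 and 10 embryo reads (1.44 and 1.28), and Rpl22 and Rplp0 had 64 and 102 brain reads, against 105 and 97 embryo reads (-3.77 and -3.11). Of 22 genes of oxidative phosphorylation, 0 lay above and 2 below (median -0.14): Ndufs7, a subunit of complex I, with 42 reads in the brain and 77 in the embryo (-3.78), and Atp5g1, of the ATP synthase, with 87 and 28 (-1.60). Glycolysis had a median of -0.11 over 16, with Slc2a1 the 1 above and Gapdh the 1 below.

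The enzymes that write, read and erase H3K4 methylation were spread as widely. Over 24 genes the median was -0.03, with 4 above by 2-fold and 3 below. With the counting interval also required to lie past the median, 3 stayed above and 3 below. Kmt2b, an MLL methyltransferase, had 235 reads in the brain and 3 in the embryo, and its ratio without the constant was 2.76, with an interval of 1.19 to 5.04. Kmt2d, which acts at enhancers, had 3813 reads in the brain, a lower bound, and 132 in the embryo (1.45). Ing2, a reader of the mark, had 284 reads in the brain and 11 in the embryo (1.08). Setd1b, a COMPASS methyltransferase, had 465 reads in the brain and 212 in the embryo (-2.21), and Taf3, which binds the mark in the TFIID complex, stood at -6.32 with a lower bound in its sums. Of 25 Polycomb genes, 2 lay above and 4 below (median -0.01). Phf1, a Polycomb accessory protein, had 926 reads in 567 brain spots and 12 reads in 12 embryo spots (2.62). Pcgf3, of variant Polycomb complexes, had 156 reads in the brain and 127 in the embryo (-2.95), and Cbx2 194 in the brain and 68 in the embryo (-1.79). Pcgf2 had 252 and 11 (0.92).

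Lists named for other tissues were set beside these, although some of their genes may also be used in the brain or the E11.5 embryo. The 77 genes of skeletal muscle, epidermis, immune cells, lung, gut, kidney and germ cells had 4 above by 2-fold (5.19%) and 6 below (7.79%), with a median of 0.11. In the epidermis list, Cdsn, of the cornified layer, had 245 reads in the brain and 9 in the embryo (1.11), Sprr1a 221 and 13 (0.55), and Grhl1 264 and 30 (-0.27). In the immune list, the T cell kinase Zap70 had 464 reads in the brain and 20 in the embryo (1.03), Cd4 299 and 15 (0.78), Foxp3 522 and 68 (-0.45), and the neutrophil protein S100a9 95 and 62 (-2.57). Zap70 and S100a9 thus lay past 2-fold on opposite sides. In the muscle list, the myosin-binding protein Mybpc2 had 324 reads in the brain and 15 in the embryo (0.89). Of lung, gut and kidney genes, Nkx2-1 had 414 and 20 (0.87), Wt1 204 and 17 (0.11), the surfactant gene Sftpb 258 and 50 (-0.99), and the kidney transporter Slc12a1 52 and 80 (-3.62). In the germ cell and pluripotency list, Piwil1 had 345 reads in the brain and 13 in the embryo (1.15), Dppa3 437 and 30 (0.42), Pou5f1 203 and 29 (-0.58), and Stra8 270 and 207 (-2.92). Olfactory receptors, with 80 genes held by both, had 7 above and 5 below and a median of 0.15.

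Within each section, the brain lists ranked at the 66.7th percentile of shared genes by reads in the brain and at the 62.2nd in the embryo, as medians over their 257 genes. The embryo lists ranked at the 67.0th percentile in the brain and at the 68.6th in the embryo. The genes used by all cells ranked at the 45.5th percentile in the brain and at the 53.4th in the embryo. Single lists moved farther: choroid and ependyma genes ranked at the 43.0th percentile in the brain and the 65.6th in the embryo, and microglial genes at the 62.6th in the brain and the 46.2nd in the embryo. These ranks are by reads and not per length.

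The genes of most extreme ratio were mostly not in the lists. Among genes with exact reads and a level of 1 or more in the higher section, the 12 highest ratios ran from 2.53 to 2.92. They were Olfr601, Gm19345, Ntm, Mtfr1, Grn, Cdk7, Usp17la, 5031439G07Rik, Rbp3, Phf1, Amtn and Syp. They had 210 to 926 reads in 187 to 567 of the 1200 brain spots and 1 to 12 reads in the embryo. Grn, the lysosomal protein progranulin, had 253 reads in the brain and 1 in the embryo, a ratio without the constant of 4.45 with an interval of 1.96 to 9.76. Cdk7, the kinase of TFIIH, had 387 reads in the brain and 3 in the embryo (3.48 without the constant, interval 1.92 to 5.76), but its ratio turned to -0.56 with deposited values and -0.53 with row order also taken off. Rbp3, a retinoid carrier of the retina, had 359 and 3 (3.37, interval 1.81 to 5.65). Mtfr1, a regulator of mitochondria, had 261 and 1 (4.49, interval 2.00 to 9.80), and the olfactory receptor Olfr601 279 and 1 (4.59, interval 2.10 to 9.90). The intervals are wide because the embryo reads are few, and those given here lie above the median for recovered reads. The genes were chosen for the highest ratios of these reads, so that position follows in part from the choice.

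The 12 lowest ratios ran from -6.21 to -5.10. Among these genes of exact reads Wdr12, a factor of ribosome assembly, was lowest, with 71 reads in 66 brain spots and 634 reads in 203 of the 248 embryo spots. Its ratio without the constant was -6.69, with an interval of -7.07 to -6.34. Zfp729a had 62 reads in the brain and 533 in the embryo (-6.12), and Pde11a, a phosphodiesterase, 63 and 480 (-5.95). Mrps22, of the mitochondrial ribosome, had 65 reads in the brain and 382 in the embryo (-5.59), and Dusp5, a phosphatase of ERK kinases, 69 and 399 (-5.58). Nmd3, which exports the large ribosomal subunit, had 7 reads in the brain and 89 in the embryo (-5.24). The others were AW549877, Phactr4, Slc25a21, Elp4, Trim30d and Fthl17d. Together the 12 had 7 to 155 reads in the brain and 89 to 680 in the embryo, where they were found in 70 to 208 spots. Their embryo reads were thus spread over many spots, and over embryo spots they followed the total reads with Spearman's rho of 0.30 to 0.73.

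The promoter of Wdr12, at chr1:60098451-60098750 on the minus strand, is shown as that of the lowest gene. It holds 38 CpG and 78% G or C, above the upper quartile of the 8754 promoters, which is 28 CpG.
Wdr12: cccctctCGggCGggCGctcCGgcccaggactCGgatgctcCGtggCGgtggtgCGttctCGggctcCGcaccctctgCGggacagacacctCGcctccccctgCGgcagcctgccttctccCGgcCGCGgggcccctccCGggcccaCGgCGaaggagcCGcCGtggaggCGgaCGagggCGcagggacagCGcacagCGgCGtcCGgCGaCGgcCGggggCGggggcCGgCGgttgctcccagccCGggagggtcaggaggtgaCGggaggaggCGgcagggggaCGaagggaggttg
The 12 lowest genes as a group had from 1 to 38 CpG in this window with a median of 19, among those with a promoter in the table, and the 12 highest from 1 to 36 with a median of 11. Their ranges thus overlapped almost entirely.

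The other embryo sections, profiled for H3K27ac and H3K27me3, gave a further reading of the same genes. The 12 lowest genes had 5 to 26 reads for H3K27ac (median 11) and, with Wdr12 at 1766 reads, 4 to 1766 for H3K27me3 (median 14.5). Their level in the H3K4me3 section of the embryo, 3.21 to 24.5, was therefore not shared by the H3K27ac section, where it was 0.130 to 0.675. Over all 1307 genes below the median by 2-fold, the median level was 0.692 in the brain, 1.77 in embryo H3K4me3, 0.597 in embryo H3K27ac and 0.538 in embryo H3K27me3. Over all shared genes these medians were 0.670, 0.397, 0.493 and 0.442 in the same order. The 804 genes above had medians of 0.868, 0.144, 0.389 and 0.346. The 804 and 1307 genes were chosen by the ratio of the brain and embryo H3K4me3 levels, so those medians are a description of the choice, and only the H3K27ac and H3K27me3 values were not used in it. The part of antibody, library or section was not tested.

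**Figure D4:**
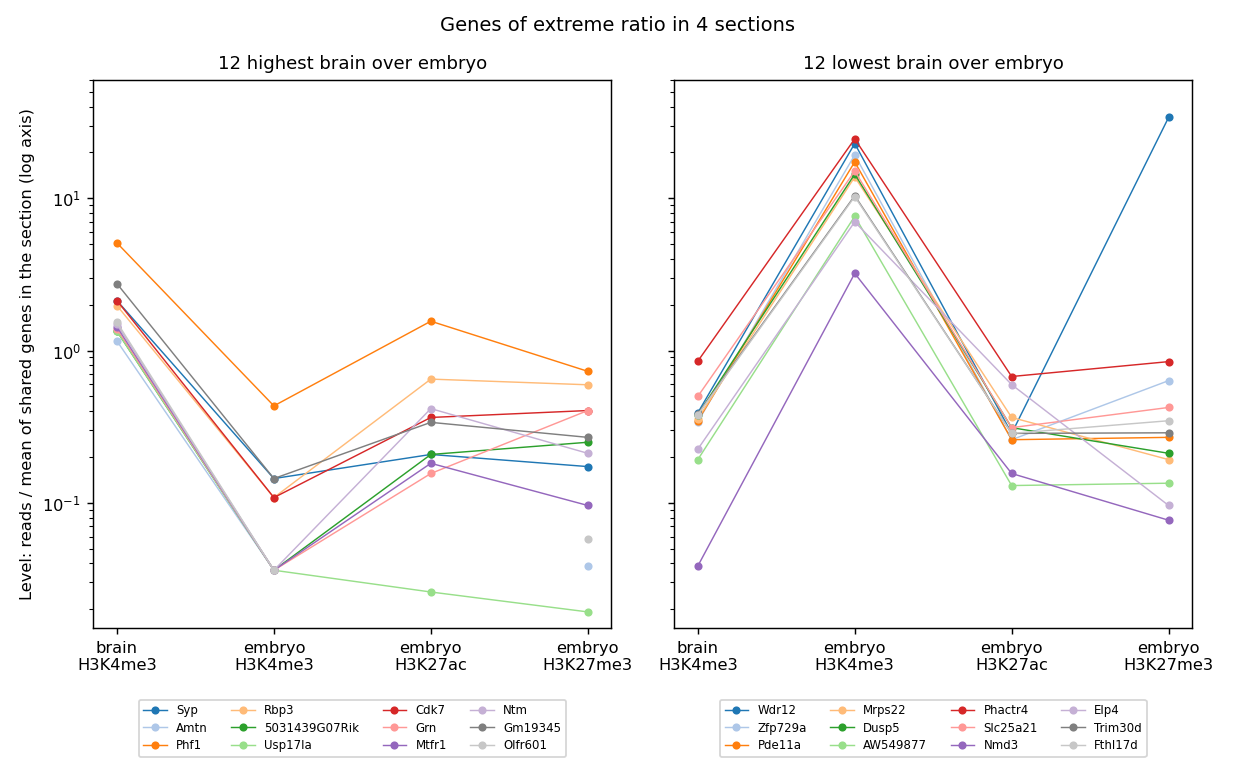
Level (reads over the section's mean of shared genes, log axis) of the 12 highest genes (left) and the 12 lowest genes (right) by ratio, in the brain H3K4me3, embryo H3K4me3, embryo H3K27ac and embryo H3K27me3 sections. A gene without a point is not among that section's genes used here. The lowest genes peak in embryo H3K4me3 alone, apart from Wdr12, which is also high in embryo H3K27me3.

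The genes of most reads each had a lower bound in at least 1 section. The 5 genes of highest brain reads were Gm14569, Cbr3, Cox6b1, Slco2b1 and Lzts2, at 10281, 8392, 7595, 7461 and 6259 brain reads, against 2212, 2717, 2111, 2056 and 356 embryo reads. The first 4 were also among the 10 genes of most embryo reads, with ratios of -1.16 to -1.75, and had 2247 to 2752 reads in embryo H3K27ac and 2721 to 3713 in embryo H3K27me3. The ratio of Gm14569, -1.16 from 2 lower bounds, turned to 1.23 with deposited values, 1.34 with row order also taken off and 1.33 with reads beyond the exact zone set to the mean of their rank. Dnajc21 had 4300 reads in the brain and 1595 in the embryo, and Map2k6, Cdh17 and Rbx1 were the other genes among the brain's 10 with Kmt2d. The remaining 6 of the embryo's 10 were Fam126a, Cd1d1, Anks4b, Rgl1, Ivd and Ppp1r3e, with 41 to 273 reads in the brain and 1945 to 2795 in the embryo. Their ratios ran from -6.64 to -8.47, and they had 3 to 35 reads in embryo H3K27ac. The 100 highest genes of each section held 12.4% of reads on shared genes in the brain and 26.8% in the embryo, so reads were more concentrated in the embryo, and 16 genes were in both sets. A brain level of 10 or more was reached by 60 genes, of which 33 lay above the median by 2-fold and 9 below, and 51 of the 60 had a lower bound. An embryo level of 10 or more was reached by 121 genes, of which 0 lay above and 113 below, and 50 of the 121 had a lower bound. A high level in 1 section favours that side of the ratio by the choice itself, so nothing is read from these counts against 7.23% and 11.7% of all genes.

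CpG content of the promoter was weakly related to the level in each section and hardly at all to the ratio. Across 8754 genes, Spearman's rho with CpG count was 0.159 for brain reads, 0.137 for embryo reads and -0.0214 for the ratio. In 5 groups of genes of rising CpG, from 0 to 6 up to 31 to 67, the median gene had 99, 124, 124, 128 and 145 brain reads, and 9, 11, 11, 12 and 14 embryo reads. The median ratio was 0.03 in the group of fewest CpG and -0.00 in the group of most. Genes past 2-fold made up 7.96% above and 11.8% below among genes of fewest CpG, and 5.69% above and 12.4% below among those of most. Gene length likewise had rho of 0.166 with brain reads, 0.134 with embryo reads and -0.00516 with the ratio. These relations are across genes, weak, and share the reads of the same 2 libraries.

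**Figure D5:**
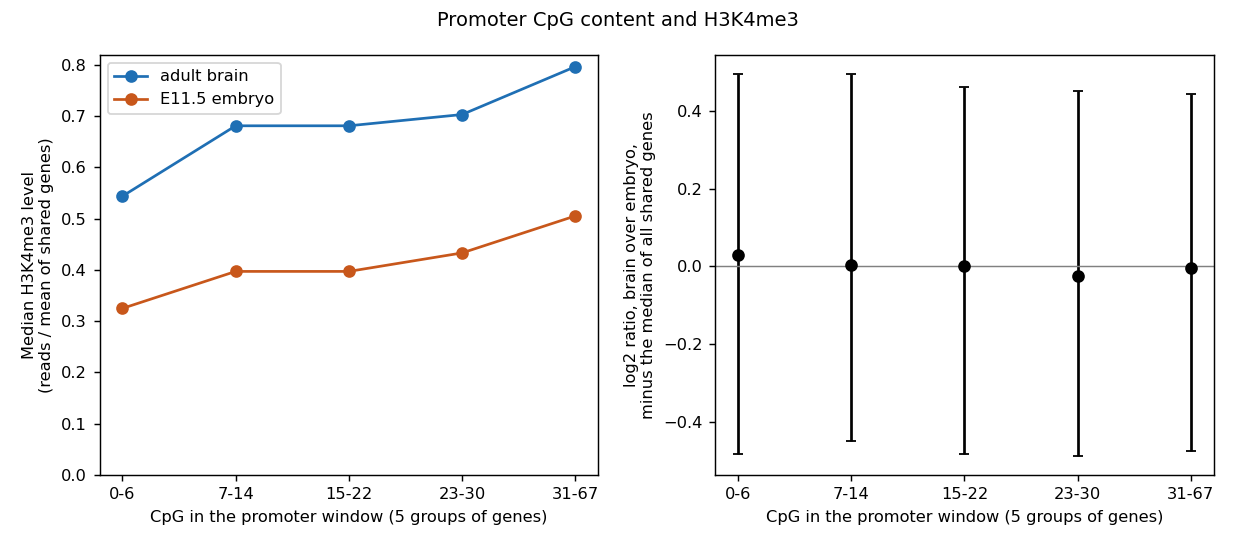
Left, median H3K4me3 level (reads over the section's mean) in the adult brain and the E11.5 embryo in 5 groups of genes by CpG in the promoter window. Right, the median log2 ratio, brain over embryo, relative to the median of all shared genes, with the quartiles as bars. The median level is higher with more CpG in both sections, and the median ratio stays within 0.03 of 0.

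The place of a gene in the row order of the control paw, by which genes of equal count had been ranked before normalisation, was checked against the ratio. Across the 11127 genes, rho with that order was 0.585 for the deposited brain values and 0.360 for the deposited embryo values, and 0.128 for their ratio. For recovered reads it was -0.107 in the brain, -0.0550 in the embryo and -0.0439 for the ratio. With a running median along the order taken off, 805 genes lay above by 2-fold and 1306 below, close to the counts of 804 and 1307 without it. The ratio of recovered reads and the ratio of deposited values had rho of 0.700 across genes. From deposited values, 1331 genes lay above by 2-fold and 1839 below.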

How the data were processed

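Each deposited matrix holds 1 signal value for each gene in each array spot, already quantile-normalised by the authors, per the file names. The submitters' processing notes name Bowtie2, featureCounts and MACS2, and the builds hg19 and mm9. The versions, the roles, the window counted per gene and the meaning of the clean-up in the embryo file's name are not stated there. Tied genes follow the control paw's row order in the normalised ranks. Reads were recovered from these ties, each fall of place marking a count higher by 1. The exact zone of a spot ends at the first count shared by under 5 genes, and the sum of a gene with over 10% of its reads past that zone is a lower bound. The recovered total was 95.2% of the list's total in the brain and 94.6% in the embryo. Of the deposited values above 0, 68.9% in the brain and 46.3% in the embryo were recovered as 0 reads. Rank by rank, the recovered sum lay within 5% of the list's at 99.8% of ranks in the brain but 62.4% in the embryo. At the highest rank it was 10308 against 72284 in the brain and 3384 against 8851 in the embryo, so lower bounds may be several-fold too low. The recovery was also run on simulated data with Poisson counts. There ties were ranked by the same row order that the recovery assumes, so that run cannot show whether the deposited values follow it.

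Levels, the log2 ratio (pseudocount 0.1) and Clopper-Pearson 95% intervals of the ratio of sums were computed with Python 3.11.15, numpy 2.4.6, pandas 2.3.3 and scipy 1.17.1. All deposited spots were used. The named genes were the 12 highest and 12 lowest ratios, the 2 highest and 2 lowest of each of 39 lists (exact reads, level of 1 or more in the higher section), the 10 genes of most reads in each section and 20 defining genes. Others named beside them are members past 2-fold, chosen after their values were seen, and some genes that the rule names are not reported here. Members and lists were chosen with earlier results of these data known. Symbols of 11120 shared genes matched RefSeq, and 8754 had a promoter there. Where several starts were listed, the one with most CpG was taken.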

Additional observations from a re-analysis of the deposited data

How the results depend on the processing

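All ratios were recomputed under 12 alternative settings. The 804 genes above the median by 2-fold became 1331 with deposited values, 1566 with a pseudocount of 0.01, 96 with a pseudocount of 1, and 1570 with the spots of most reads of each gene left out. Under the other 8 settings the number was 652 to 984. The 1307 genes below became 492 with a pseudocount of 1 and were 1224 to 1842 under the other settings. The cause was not tested, beyond the pseudocount acting on low levels by construction. Of 1248 values for the 105 named genes past 2-fold, 1242 kept their direction. These genes were past 2-fold in the same reads, which favours keeping the sign. Of the 105, 70 stayed past 2-fold with a pseudocount of 1, 91 with deposited values and 94 with row order also taken off. With the share of spots with reads 92 stayed, and with the mean of spot shares 96. All 93 with exact reads stayed with lower bounds left out, and 102 to 105 stayed under the rest. Gm14569 reversed to 1.23 with deposited values, 1.34 with deposited values after row order was taken off and 1.33 with reads beyond the exact zone set to the mean of their rank. Zic4 reversed to -0.11 with deposited values. Cdk7 reversed to -0.56 with deposited values and -0.53 with row order also taken off. Of the 39 list medians, those of synaptic vesicle, striatal, interneuron, oligodendrocyte, microglial, choroid, clock, heart, blood and liver, cell cycle, oxidative phosphorylation, epidermis and lung, gut and kidney genes kept their sign in all 12. The median of all genes moved from 0.66 to 0.24 with a pseudocount of 1 and to 0.88 without the top spots, and each setting's ratios are relative to its own median. No paired analysis was possible because each group has 1 section and no result comes from a test. Embryo depth limits the genes above the median: 631 of the 804 had fewer than 10 embryo reads.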
